A study of Homo sapiens with 4 samples.

Results

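Decitabine (DAC) has to enter a cell, be phosphorylated and escape deamination before it can be built into DNA. The expression of 10 genes of this route and of the deoxynucleotide supply it competes with was analysed in HML58-3 cells, a derivative of the HCT116 colon cancer line in which a methylated promoter controls a luciferase reporter. The genes were *SLC29A1*, *SLC29A2*, *DCK*, *CMPK1*, *CDA*, *DCTD*, *SAMHD1*, *RRM1*, *RRM2* and *TYMS*, chosen by function. Every probe whose RefSeq accession maps to one of these symbols was taken, which gave 12 of the 58201 gene probes, 1 for each of 8 genes and 2 each for *SAMHD1* and *CMPK1*. All 4 groups were the same line. On day 1 they received mock treatment or a drug at 1 μM, either DAC or its prodrugs OR-2003 and OR-2100, dissolved in DMSO, and RNA was taken on day 5. Each group was measured on 1 one-colour Agilent microarray, so that differences cannot be set against the spread between cultures and were not tested. The 3 comparisons with mock share 1 mock array. In bulk RNA, fewer cells of a kind and less RNA per cell cannot be told apart.

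Nucleoside analogues such as DAC cross the membrane through equilibrative nucleoside transporters. Deoxycytidine kinase (*DCK*) then adds the phosphate that traps the drug in the cell, further kinases build the triphosphate, and DNA polymerase inserts it, where it captures DNA methyltransferases. Cytidine deaminase (*CDA*) and dCMP deaminase (*DCTD*) inactivate the drug before and after its first phosphorylation, the *SAMHD1* hydrolase removes triphosphates, and ribonucleotide reductase (*RRM1* and *RRM2*) and thymidylate synthase (*TYMS*) make the natural deoxynucleotides that compete with it.

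The promoters of some of these genes are shown because DNA demethylation acts at CpG dinucleotides and because *RRM1*, *RRM2* and *TYMS*, described further on, lay below mock. The same held for 7 of the 10 genes, these included, and so does not set them apart. Sequences come from RefSeq (GRCh38.p14) and hold the 250 bases before the gene start, read 5′ to 3′ on the strand of the gene, with each CpG in capitals. They are at chr1:20588847-20589096 (plus strand) for *CDA*, chr4:182917612-182917861 (minus strand) for *DCTD*, chr11:4094435-4094684 (plus strand) for *RRM1* and chr18:657403-657652 (plus strand, overlapped by the noncoding gene *TYMSOS*) for *TYMS*.
CDA: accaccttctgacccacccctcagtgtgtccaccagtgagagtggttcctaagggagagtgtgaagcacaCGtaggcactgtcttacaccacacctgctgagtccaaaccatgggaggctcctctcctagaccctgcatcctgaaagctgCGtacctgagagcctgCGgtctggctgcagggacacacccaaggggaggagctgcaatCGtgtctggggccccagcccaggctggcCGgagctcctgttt
DCTD: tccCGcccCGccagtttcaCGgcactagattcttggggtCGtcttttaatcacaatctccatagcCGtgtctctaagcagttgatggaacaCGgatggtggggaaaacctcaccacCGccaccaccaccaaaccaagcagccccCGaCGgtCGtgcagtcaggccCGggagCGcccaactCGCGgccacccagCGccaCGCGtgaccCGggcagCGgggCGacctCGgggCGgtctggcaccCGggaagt
RRM1: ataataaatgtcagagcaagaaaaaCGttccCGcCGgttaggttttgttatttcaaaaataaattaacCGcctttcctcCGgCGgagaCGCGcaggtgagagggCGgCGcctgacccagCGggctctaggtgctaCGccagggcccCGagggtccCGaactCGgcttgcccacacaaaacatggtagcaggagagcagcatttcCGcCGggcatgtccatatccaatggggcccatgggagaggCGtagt
TYMS: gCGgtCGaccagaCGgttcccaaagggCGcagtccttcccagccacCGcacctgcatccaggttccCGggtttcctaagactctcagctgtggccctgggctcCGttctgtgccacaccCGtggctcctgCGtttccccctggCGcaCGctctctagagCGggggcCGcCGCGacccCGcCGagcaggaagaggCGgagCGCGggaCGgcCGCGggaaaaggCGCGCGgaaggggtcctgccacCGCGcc

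The *CDA* window held 5 CpG dinucleotides, and 38.1% of the 35116 promoter windows of this length held as few. The *DCTD* window held 23, the *RRM1* window 18 and the *TYMS* window 28, beside a median of 11 over all windows. For the other genes, the windows of *DCK*, *CMPK1* and *SAMHD1* held 31, 16 and 14. Where a gene has a further start, its windows differed, with 40 CpG dinucleotides at the other *DCTD* start, 27 and 34 for *RRM2*, and 19 and 27 for *SLC29A1*. The promoter of *SLC29A2* was not analysed here. Methylation was not measured on these arrays.

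The windows were also searched on both strands for CCAAT and for the E2F-type words TTTCCCGC, TTTCGCGC, TTTGCCGC and TTTGGCGC, which are common before genes of the cell cycle. The search found 3 CCAAT words before the downstream start of *RRM2*, 1 before its upstream start, 1 before *RRM1* and 2 before *SAMHD1*, and 1 E2F-type word, as its reverse complement, before *TYMS*. Of all windows, 32.0% held CCAAT, 2.93% held 3 or more and 2.79% held an E2F-type word. The 3 sites of *SAMHD1* and of the upstream *RRM2* start are not printed. The sites of *RRM1*, of the downstream start of *RRM2* and of *TYMS* are printed with 10 bases on each side and the word in capitals, in the order chr11:4094657-4094661, chr2:10122616-10122620, chr2:10122646-10122650, chr2:10122673-10122677 and chr18:657614-657621, as words found in the sequence and not as measured binding.
RRM1 CCAAT: atgtccatatCCAATggggcccatg
RRM2 CCAAT, most distant: caaggcgcagCCAATgggaagggtc
RRM2 CCAAT, middle: catggcacagCCAATgggaagggcc
RRM2 CCAAT, nearest: ggcaccaaagCCAATgggaagggcc
TYMS E2F-type: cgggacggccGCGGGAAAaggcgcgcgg

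Levels are log2 intensities, scaled so that the 75th percentile over gene probes is 0 on every array, and differences are log2 differences from the mock array. Values with drugs stand in the order DAC, OR-2003, OR-2100. A probe is called well above background by the scanner software, and all 12 probes were so on all 4 arrays. As a measure of noise within an array, the SD between the spots of probes printed 10 times was 0.0680 for levels of -1 or more, so that a difference between 2 single spots has a 95% half-width of 0.188. For dimmer probes well above background the half-width was 0.760. This noise holds no difference between cultures. The scanner software's own error of a spot was larger than the SD of 0.0680, at 0.144 to 0.203 for the 12 probes, and is not in the half-widths. A difference that passes the noise of 2 spots can thus still lie within the scanner software's error. A gene was called induced at 2-fold or more above mock with a level of -1 or more with the drug, and reduced at 2-fold or more below mock with a level of -1 or more on the mock array. Genes are represented by their probe with the highest mean level.

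All arrays shared 1 slide and 1 scan run, and the condition and the position on the slide cannot be told apart. Among the colon epithelial markers, *EPCAM*, *CDH1*, *KRT8*, *KRT18*, *KRT19*, *CDX2*, *CLDN3*, *CLDN4* and *CLDN7* were well above background on all 4 arrays, and *VIL1* was not on the mock array. *EPCAM*, *CDH1*, *CLDN3*, *CLDN4* and *CLDN7* were reduced by all 3 drugs, *EPCAM* by -1.49, -1.52 and -1.45, while *KRT8* was at 0.59, 0.59 and 0.47. Of 11 markers of blood, vessel and stromal cells, *CD14* and *VIM* were among those induced by all 3 drugs, and the leukocyte gene *PTPRC* was at -1.48 on the mock array and between -1.79 and -1.64 with drugs. The summed linear level of these 11 markers was 4.96 on the mock array and 124 to 135 with drugs, of which *VIM* alone was 1.64 and 114 to 126 and the other 10 markers 3.32 and 9.39 to 9.85. The part of these markers in the values below was not tested. The mock array also differed from the others before scaling, with a 75th percentile of 7.25 on the log2 scale beside 7.38 to 7.46, and its spike-in slope of 0.899 was out of the range set by the scanner software. The part of these in the differences from mock was not tested.

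None of the 10 genes was induced by any drug. Of all 25002 named genes, DAC induced 5.78%, OR-2003 5.9% and OR-2100 5.81%, and of the 15975 well above background on all arrays, as these 10 are, the shares were 6.47%, 6.59% and 6.4%. *SLC29A2* was reduced with DAC, *SLC29A2* and *DCTD* with OR-2003, and *DCTD* with OR-2100, or 1, 2 and 1 of 10 genes. The shares of all named genes that were reduced were 5.96%, 6.05% and 6.82% in the same order. Of those well above background on all arrays they were 9.31%, 9.46% and 10.7%, so that 1 or 2 of 10 is near the background. No gene of the 10 was reduced by all 3 drugs, beside 5.21% of all named genes and 8.14% of those well above background on all arrays. This count is also near the background. The median difference of the 10 genes was -0.16, -0.13 and -0.32 in this order, and that of the named genes well above background was -0.18, -0.17 and -0.21. The normexp background correction and the percentile of bright probes left 0 of the 10 genes reduced.

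**Figure D1:**
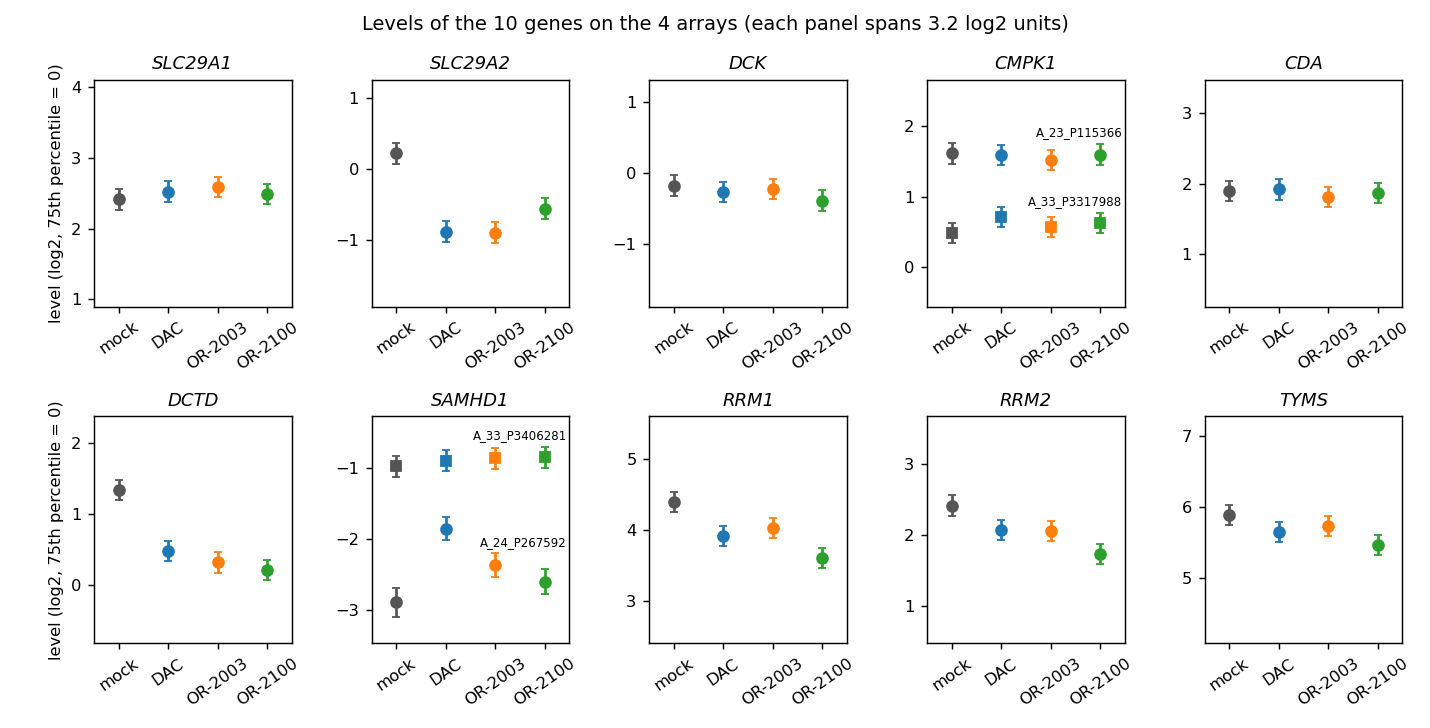
Level of each gene (log2, 75th percentile of gene probes set to 0) on the mock, DAC, OR-2003 and OR-2100 arrays, 1 point per array and probe, with bars for the scanner software's error of the spot. *DCTD* and *SLC29A2* lie lower on all 3 drug arrays than on the mock array, *RRM1*, *RRM2* and *TYMS* are lowest with OR-2100, and *DCK*, *CDA*, *SLC29A1* and *CMPK1* differ from mock by 0.22 or less.

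The transporters differed from each other. *SLC29A1* encodes ENT1, the main equilibrative nucleoside transporter of most cells, and its level was 2.41 on the mock array and 2.52, 2.59 and 2.49 with the drugs. Its differences of 0.11, 0.18 and 0.08 were all within the noise of 2 spots, and turned to between -0.05 and -0.01 under median scaling. *SLC29A2* encodes ENT2, which carries nucleosides and nucleobases, and its level was 0.22 on the mock array and -0.88, -0.90 and -0.56 with the drugs. All 3 drug arrays were below the mock array, by 2.15, 2.17 and 1.71-fold. The *SLC29A2* differences of -1.10, -1.12 and -0.78 kept their sign under each of 11 alternatives, in which they ranged from -1.34 to -0.55. Not all of these could move it. For genes with 1 probe, as *SLC29A2*, *DCTD*, *RRM1* and *RRM2*, some returned the same value. They were the deposited series table, the mean and the median of probes, and leaving out dim probes. Of the named genes well above background, 8.81%, 8.51% and 19.6% had a lower difference than *SLC29A2*.

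The kinases were near the mock level. *DCK*, whose product carries out the rate-limiting activation of DAC, was at -0.18 on the mock array and at -0.27, -0.23 and -0.39 with the drugs. Its differences were -0.09, -0.05 and -0.21, of which the last passed the noise of 2 spots by little. The sign of *DCK* turned for all 3 drugs with the percentile of bright probes and for DAC and OR-2003 with the median of bright probes. *CMPK1* encodes UMP/CMP kinase, which adds the next phosphate. Its brighter probe, A_23_P115366, was at 1.61 on the mock array and at 1.59, 1.51 and 1.59 with the drugs. The other, A_33_P3317988, was at 0.49 on the mock array and at 0.71, 0.57 and 0.63 with drugs. The *CMPK1* probes thus lay on opposite sides of mock, at -0.02 to -0.10 and 0.08 to 0.22, and the sign of the gene turned with the scaling.

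The deaminases also differed from each other. *CDA*, whose product deaminates DAC itself and whose action the prodrugs were made to resist, was at 1.89 on the mock array and at 1.92, 1.81 and 1.86 with the drugs. The *CDA* differences of 0.02, -0.08 and -0.03 lay within the noise of 2 spots, and each turned its sign in at least 1 alternative. *DCTD*, whose product deaminates dCMP and the monophosphate of DAC and so makes the dUMP that thymidylate synthase uses, was at 1.35 on the mock array and at 0.49, 0.32 and 0.21 with the drugs. All 3 drug arrays were below the mock array, by 1.82, 2.04 and 2.19-fold. The *DCTD* differences of -0.86, -1.03 and -1.13 lay just outside and just inside the 2-fold threshold and kept their sign under each of 11 alternatives, ranging from -1.25 to -0.66. Of the named genes well above background, 14.8%, 10.6% and 9.68% had a lower difference.

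*SAMHD1* encodes the dNTP triphosphohydrolase, which can also hydrolyse the triphosphate of DAC. Its probes disagreed in size. The brighter, A_33_P3406281, was at -0.97 on the mock array and at -0.90, -0.86 and -0.85 with the drugs, with differences of 0.07, 0.11 and 0.12 within the noise of 2 spots, of which those with DAC and OR-2003 turned below 0 under median scaling. The dimmer, A_24_P267592, was at -2.89 on the mock array and at -1.85, -2.36 and -2.60, with differences of 1.04, 0.53 and 0.29. Only the difference with DAC passed the half-width of 0.760 for dim probes, and its level stayed under -1, so that it was not called induced. *SAMHD1* is known as an interferon-stimulated gene in some cells. Of the interferon-stimulated genes, 9 of 11 were induced with every drug, beside 5.28% of all named genes, and *MX1* went from -1.35 on the mock array to 4.63, 4.45 and 4.89. The part of interferon in the values of *SAMHD1* was not tested.

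**Figure D2:**
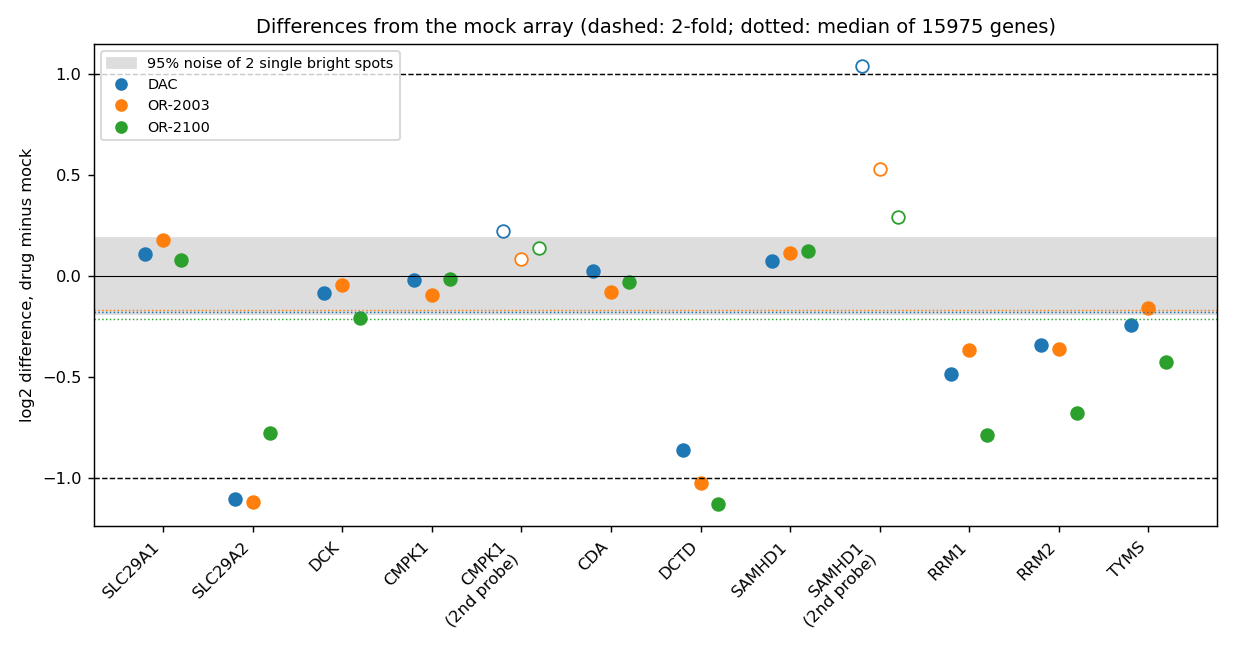
Log2 difference from the mock array for each probe on the 3 drug arrays, with the noise of 2 single bright spots in grey, the 2-fold threshold dashed and the median of the 15975 named genes well above background dotted. *SLC29A2* and *DCTD* lie between -1.13 and -0.78, *RRM1*, *RRM2* and *TYMS* between -0.79 and -0.16, and the dimmer *SAMHD1* probe (open circles) is higher, most with DAC.

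*RRM1*, *RRM2* and *TYMS* supply natural deoxynucleotides. *RRM1*, the large subunit of ribonucleotide reductase, was at 4.40 on the mock array and at 3.92, 4.03 and 3.61 with the drugs. *RRM2*, the small subunit, which is made in S phase, was at 2.41 on the mock array and at 2.07, 2.05 and 1.73. *TYMS*, which makes dTMP from dUMP, was at 5.90 on the mock array and at 5.65, 5.74 and 5.47. In all 3 genes the mock array was highest and the OR-2100 array lowest. The differences from mock were -0.48, -0.37 and -0.79 for *RRM1*, -0.34, -0.36 and -0.68 for *RRM2*, and -0.24, -0.16 and -0.43 for *TYMS*, and none reached 2-fold. That of *TYMS* with OR-2003 was within the noise of 2 spots. Those of *RRM1* and *RRM2* kept their sign under each of 11 alternatives, while that of *TYMS* with OR-2003 turned to 0.04 at most, with quantile normalization and with the percentile of bright probes. Relative to the median of the named genes well above background, *RRM1* differed by -0.30, -0.20 and -0.58 and *RRM2* by -0.16, -0.19 and -0.47. *TYMS* differed by -0.06, 0.01 and -0.21, so that *TYMS* with DAC and OR-2003 lay near the middle of these genes. Of the same genes, 30.9%, 37.1% and 19.2% had a lower difference than *RRM1*, and 39.5%, 37.7% and 23.2% a lower one than *RRM2*. Of the 10 genes, 7 were lower with all 3 drugs by any size, beside 56.4% of the named genes well above background, and 2 were higher, beside 32.4%. Under the scalings tried, between 4 and 9 were lower with all 3.

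Genes of DNA replication and of cycling cells, called replication genes here, were set beside these because ribonucleotide reductase and thymidylate synthase work in S phase. Their median difference was -0.25, -0.21 and -0.43 over 19 genes, beside -0.18, -0.17 and -0.21 over the named genes well above background. With the percentile of bright probes the medians of the 19 genes were -0.05, -0.01 and -0.21, and with quantile normalization -0.07, -0.09 and -0.24. Of these 19 genes, 13 were lower with all 3 drugs and 4 higher, beside 56.4% and 32.4% of the named genes well above background. *POLA1*, the catalytic subunit of DNA polymerase alpha, was reduced by all 3 drugs, at -1.06, -1.01 and -1.14, and *PCNA*, the sliding clamp, was at 0.58, 0.54 and 0.24. *CDKN1A*, the p53-responsive inhibitor of cell cycle kinases, was induced by all 3 drugs, at 1.26, 1.19 and 1.22. The part of cell cycling in the values of *RRM1*, *RRM2* and *TYMS* was not tested.

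The 3 drugs were compared with each other at the same dose and time, which gave 30 differences between pairs for the 10 genes. None reached 2-fold, beside 0.008%, 0.008% and 0.004% of all named genes for OR-2003 and DAC, OR-2100 and DAC, and OR-2100 and OR-2003. Between OR-2003 and DAC, the 10 differences ran from -0.16 for *DCTD* to 0.12 for *RRM1*, all within the noise of 2 spots. For the named genes well above background, the 25th and 75th percentiles of this difference were -0.07 and 0.08, also within this noise. OR-2003 was below DAC by more than the noise for 0 of the 10 genes, beside 7.34% of the named genes well above background. OR-2100 was below DAC by more than this noise for *DCTD*, *RRM1* and *RRM2*, at -0.27, -0.30 and -0.34, and 15.5% of the named genes well above background were so. OR-2100 was below OR-2003 by more than the noise for *RRM1*, *RRM2* and *TYMS*, at -0.42, -0.32 and -0.27, beside 17.1% of these genes. *SLC29A2* went the other way, with OR-2100 above DAC by 0.33 and above OR-2003 by 0.34. Of the named genes well above background, 96.0% and 97.0% had lower values than *SLC29A2* in these pairs.

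The order of the drugs depended on the scaling. OR-2003 passed the noise of 2 spots below DAC with spike-in scaling for *DCTD*, *CDA* and *CMPK1*, at -0.31, -0.25 and -0.22. With median scaling it did so for *DCTD* and *CDA*, at -0.27 and -0.21. With the mean of probes *SAMHD1* was at -0.24. That mean includes its dimmer probe, at -0.51, which is within the half-width of 0.760 for dim probes. OR-2100 was the lowest drug array for 6 of the 10 genes and for 19 of the 19 replication genes, beside 49.8% of the named genes well above background. Under scaling by spike-in probes these counts were 2, 1 and 5.44%, and under median scaling 4, 12 and 22.7%. The sign of OR-2100 against DAC and against OR-2003 held under each alternative for *RRM1*, *RRM2* and *SLC29A2*. With spike-in scaling OR-2100 minus DAC was -0.13 for *DCTD* and -0.16 for *RRM1*, within the noise of 2 spots, and -0.20 for *RRM2*. With the same scaling the differences of OR-2100 from OR-2003 shrank to -0.13 for *RRM1* and -0.03 for *RRM2*, turned to 0.02 for *TYMS*, and were 0.34 for *CDA*, 0.37 for *CMPK1*, 0.30 for *SAMHD1* and 0.63 for *SLC29A2*. With normexp, *SLC29A2* with OR-2100 was above DAC by 0.17, within the noise, and above OR-2003 by 0.21. With no replicates, an interval that holds the spread between cultures cannot be given, so that pairs within the noise of 2 spots are not shown to act alike.

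**Figure D3:**
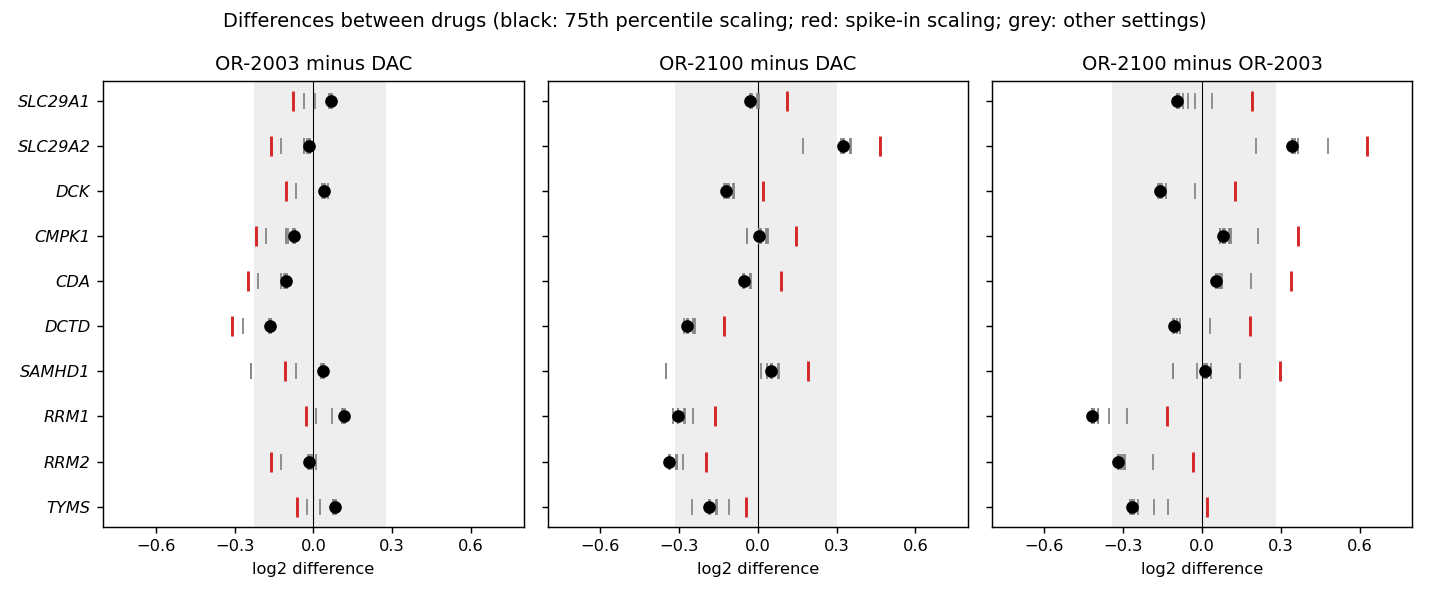
Log2 differences between pairs of drugs for the 10 genes, with the 75th percentile scaling as black points, spike-in scaling as red ticks and the other settings as grey ticks, over the range from the 5th to the 95th percentile of named genes well above background in grey shade. *SLC29A2* lies right of 0 in both OR-2100 panels under all settings, and *RRM1* and *RRM2* lie left of 0.

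A wider list of 83 genes of nucleotide transport and metabolism, without the 10 genes, was read by the same rules. Of these, 75 were well above background on all arrays. Reduced genes numbered 8, 9 and 8, and 7 with all 3 drugs, and induced genes numbered 2, 2 and 3, with 2 for all 3. With all 3 drugs, 8.43% of the list was reduced and 2.41% induced. The shares were 5.21% and 5.28% of all named genes, and 8.14% and 5.77% of those well above background. The median difference of the list was -0.13, -0.15 and -0.26, beside -0.11, -0.09 and -0.23 over all named genes. For the 75 genes well above background it was -0.13, -0.16 and -0.26, beside -0.18, -0.17 and -0.21 over the named genes well above background.

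Folate enzymes that feed thymidylate and purine synthesis were among the reduced genes. *MTHFD2*, a mitochondrial enzyme of one-carbon metabolism, has 10 spots and was at 6.33 ± 0.05 (SD, n = 10 spots) on the mock array and at 4.71 ± 0.06 (SD, n = 10 spots) with DAC, and its differences were -1.62, -1.72 and -1.80. *SHMT2*, the mitochondrial serine hydroxymethyltransferase, was at -1.08, -1.01 and -1.19, and *MTHFD1*, a cytosolic enzyme of the folate cycle, at -1.07, -1.09 and -1.22. Of the 12 genes of the group for reductase, thymidylate and folate, these 3 were reduced by all 3 drugs. The share was 8.14% of the named genes well above background. The count in the group depended on the scaling. With quantile normalization and with the percentile of bright probes, *SHMT2* and *MTHFD1* fell short of 2-fold with every drug. Of these 3 genes, *MTHFD2* alone was still reduced by all 3 drugs with these settings. *RRM2B*, the p53-responsive small subunit of ribonucleotide reductase, was at 0.29, 0.24 and 0.02, with mean differences of 0.18 and 0.41 for its probes.

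Among 19 kinases, *CMPK2*, a mitochondrial UMP/CMP kinase that is also interferon-stimulated, was the gene induced by all 3 drugs. Its level was -1.16 on the mock array and 1.17, 1.06 and 1.40 with the drugs, or 5.03, 4.66 and 5.88-fold higher, while its cytosolic relative *CMPK1* stayed near the mock level. *AK3*, a mitochondrial adenylate kinase family member that uses GTP, was reduced by all 3 at -1.33, -1.41 and -1.59, and its other probe had a mean difference of -0.91. *TK2*, the mitochondrial thymidine and deoxycytidine kinase, was at -0.88, -1.01 and -1.09 and *NME3*, a nucleoside diphosphate kinase, at -0.76, -0.78 and -0.72, while *AK1* was at 0.59, 0.49 and 0.55. *TK1*, the cytosolic thymidine kinase, was at -0.16, -0.09 and -0.44 and *UCK2*, which phosphorylates uridine and cytidine, at -0.02, -0.10 and -0.01.

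**Figure D4:**
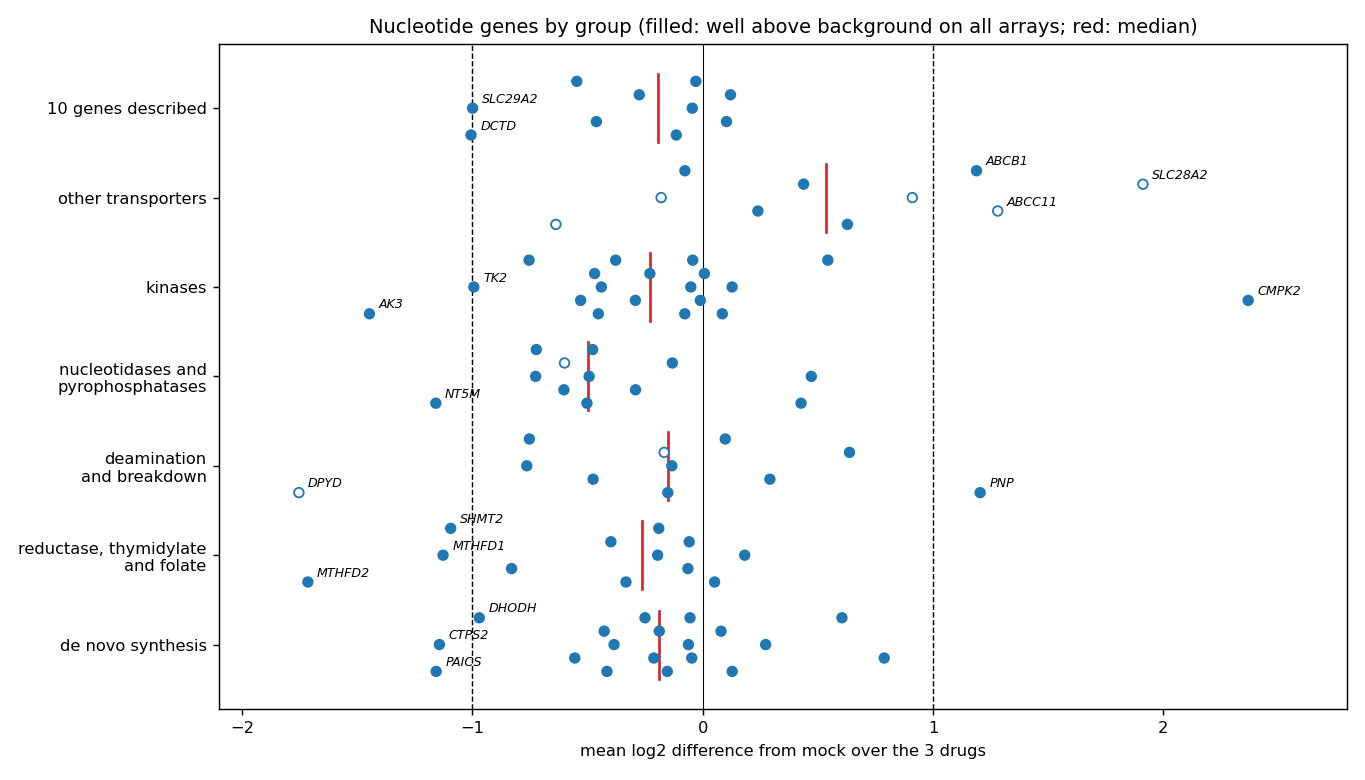
Mean log2 difference from mock over the 3 drugs for the 10 genes and for the 83 further genes by group, each point a gene, filled where well above background on all 4 arrays, with the group median in red and the 2-fold limits dashed. Among filled points, *CMPK2*, *PNP* and *ABCB1* lie right of the upper limit, *MTHFD2*, *AK3*, *NT5M*, *PAICS*, *CTPS2*, *MTHFD1* and *SHMT2* left of the lower limit, and *DCTD* and *SLC29A2* about on it.

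Among 12 nucleotidases and pyrophosphatases, *NT5M*, the mitochondrial deoxynucleotidase, was reduced by all 3 drugs at -1.09, -1.14 and -1.25. *DUT*, which hydrolyses dUTP to the dUMP used by thymidylate synthase, was at -0.42, -0.53 and -0.55. The nucleotidases *NT5C2* and *NT5C3A* were at -0.64, -0.86 and -0.68 and at -0.78, -0.75 and -0.63. *NUDT1*, which clears oxidised nucleotides, was at 0.60, 0.52 and 0.29.

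Among 11 genes of deamination and breakdown, *PNP*, the purine nucleoside phosphorylase, was induced by all 3 drugs, from 5.18 on the mock array to 6.35, 6.42 and 6.38, or 2.25, 2.36 and 2.30-fold. *UPP1*, the uridine phosphorylase, was at 0.60, 0.72 and 0.60 by its brighter probe, and its probes had mean differences of 0.64 and 1.57. *DERA*, the deoxyribose-phosphate aldolase, and *GDA*, the guanine deaminase, were at -0.62, -0.76 and -0.91 and at -0.78, -0.64 and -0.84. Among 19 genes of de novo synthesis, *PAICS*, a purine enzyme, was at -1.12, -1.08 and -1.27. The CTP synthases lay on opposite sides, with *CTPS2* at -1.08, -1.15 and -1.20 and *CTPS1* at 0.78, 0.85 and 0.74. The *CTPS2* value rests on its brighter probe, since the mean differences of its probes were -1.14 and -0.18, and those of the *CTPS1* probes were 0.79 and 0.37. *DHODH*, of pyrimidine synthesis, was at -0.90, -1.05 and -0.96, and *IMPDH1*, of GTP synthesis, at 0.66, 0.62 and 0.54.

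Of 10 other transporters, 5 were well above background on all arrays, and 7 were under the level of -1 on the mock array and could not be called reduced. *ABCB1*, the drug efflux pump, was at -2.39 on the mock array and at -1.29 and -1.31 with DAC and OR-2003. Its differences were 1.10, 1.08 and 1.39, and it reached the level of -1, by little, with OR-2100 alone, where it was called induced. *ABCC4*, a nucleotide exporter, was at -1.59 on the mock array and at -0.84, -1.04 and -1.01 with the drugs. Its differences of 0.75, 0.56 and 0.58 were below the half-width of 0.760 for dim probes, while its level with DAC was above -1. The concentrative nucleoside transporters *SLC28A2* and *SLC28A3* were not well above background on any array, and *SLC28A1* was so on 3 of the 4 arrays.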

How the data were processed

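RNA of the mock-treated cells and of the 3 drug treatments was labelled with Cy3 and hybridised to 4 one-colour arrays, 1 per condition, and no test was run. The authors deposited a background-corrected intensity for each spot, made with Feature Extraction 12.1.0.3 and without normalization between arrays, and a series table with the same values. Other deposited columns hold the software's marks, and spots marked as outliers were left out, which can lower the spread between spots. From there, log2 intensities of the spots of a probe were averaged and the 75th percentile of gene probes was set to 0, as in the study's methods. Of 58200 probes with a value on all arrays, 34888 were named through RefSeq accessions (GRCh38.p14). The array number limits the precision.

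The genes, lists and rules were chosen with earlier results of these data known. The text names all 10 genes, of each list those called with all 3 drugs and the 2 highest and 2 lowest of the rest, or some of these, and a few set by name. Some genes that this rule names are not reported here. Wider lists of 83 genes, replication (19 of 20 genes matched), p53 targets (of 12, *CDKN1A* was induced and *BBC3* reduced with all 3 drugs), interferon-stimulated genes and markers were used. The code that makes the calls was tested on simulated 4-fold differences, which checks the code alone and cannot judge calls near the 2-fold threshold. Alternatives were the series table, normexp (offset 50, on the median intensity), quantile normalization, the 75th percentile of bright probes, median and spike-in scaling (9 probes), marked spots kept, the mean or median of probes, 1.5-fold and 4-fold thresholds, no level threshold and dim probes left out. The median of bright probes was added after seeing the data. The scaling to bright probes kept the mean offset, so that the level threshold stayed comparable. Python 3.11.15, numpy 2.4.6, pandas 2.3.3, matplotlib 3.10.9, R 4.3.3 and limma 3.58.1 were used.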

Additional observations from a re-analysis of the deposited data

How the results depend on the processing

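No paired analysis was possible because there were no replicates, which also means that none was left out. The series table held the same values. The signs of *SLC29A2*, *DCTD*, *RRM1* and *RRM2* held for all 3 drugs under each alternative, and no called value turned its sign. Each of these genes has 1 probe, so that the mean or median of probes and leaving out dim probes returned the same value. Counts and list medians that moved follow, by drug as above, and the cause was not tested. Dim signal limits *SAMHD1*, whose level is near -1. Reduced members of the 10 genes numbered 0, 0 and 0 with normexp, with the percentile of bright probes and with a 4-fold threshold. With a 1.5-fold threshold they numbered 2 with DAC, 4 with OR-2100 and 2 with all 3 drugs. Shares of all named genes at 1.5-fold, at 4-fold or without a level threshold are not reported here. Counts with these settings, also those of the wider list below, thus have no background beside them. The count with OR-2003 was 1 with quantile normalization and 1 with the median of bright probes, and the count with OR-2100 was 0 with spike-in scaling.

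In the wider list, reduced genes numbered 15, 16 and 18, and 15 with all 3 drugs, at 1.5-fold, and 0, 0, 0 and 0 at 4-fold. The percentile of bright probes gave 2, 2 and 4, and 2 for all 3. With the median of bright probes they were 3 and 4 with DAC and OR-2003, and 2 with all 3. With quantile normalization they were 3 and 2 with DAC and OR-2003, and 2 with all 3, and with normexp they were 5 with OR-2003. Induced genes numbered 8, 6 and 5, and 4 with all 3, at 1.5-fold. They numbered 1, 1, 1 and 1 at 4-fold, and 5, 6, 5 and 5 without a level threshold.

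The median of the wider list was 0.066, 0.055 and -0.041 with the percentile of bright probes. It was -0.033 and -0.16 with DAC and OR-2100 with the median of bright probes, and -0.0098 and -0.036 for the same drugs with quantile normalization. With median scaling it was -0.25 and -0.37 with DAC and OR-2003, and with spike-in scaling -0.069 with OR-2100. The median of the replication genes, -0.25, -0.21 and -0.43, became -0.05, -0.01 and -0.21 under scaling to the percentile of bright probes, -0.36, -0.43 and -0.52 with median scaling and -0.15, -0.12 and -0.33 with the median of bright probes. It was -0.07, -0.09 and -0.24 with quantile normalization and -0.19, -0.30 and -0.24 with spike-in scaling. The median of all named genes, -0.11, -0.09 and -0.23, became 0.08, 0.11 and -0.01 when scaled to the percentile of bright probes, -0.23, -0.32 and -0.32 with median scaling and -0.06, -0.18 and -0.03 with spike-in scaling. It was -0.03, -0.04 and -0.02 with quantile normalization and -0.02, 8.1e-05 and -0.13 with the median of bright probes.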
